A study of Rattus norvegicus with 8 samples.

Results

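The interleukin-6 (IL-6) family of cytokines and their receptors was examined in primary rat nucleus pulposus (NP) cells with and without knockdown of Sirt6. The genes were 4 cytokines (Il6, Lif, Il11 and Clcf1), 4 receptor chains (Il6r, Il6st, Lifr and Osmr), the transcription factor Stat3 and its feedback inhibitor Socs3. They were picked out by gene name, and each was found in the deposited table of gene names. All 10 passed the filter on low counts, among 13250 genes tested.

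NP cells fill the soft centre of the intervertebral disc. Cells of adult Sprague Dawley rats were transduced with lentiviruses carrying either a mixture of 3 ShSirt6 clones (Sirt6-KD, libraries S5 to S8) or a control ShRNA (Sirt6-Ctrl, libraries S1 to S4), and were selected with puromycin. Every group therefore carried a lentivirus, and the knockdown was in cultured cells rather than in the disc. The series record describes cells of 4 rats, each with its own control, but no label says which Sirt6-Ctrl and Sirt6-KD libraries came from the same rat, so the groups were compared without pairing.

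IL-6 family cytokines act through receptor complexes that contain the shared chain gp130, the product of Il6st. IL-6 first binds the IL-6 receptor (Il6r) and IL-11 binds its own alpha chain (Il11ra1), whereas leukemia inhibitory factor (LIF, from Lif) pairs gp130 with the LIF receptor (Lifr), and oncostatin M pairs it with the oncostatin M receptor (Osmr). Janus kinases bound to these receptors phosphorylate STAT3, which enters the nucleus and induces Socs3, whose product then blocks the kinases. IL-6 is made by disc cells and is a classic component of the senescence-associated secretory phenotype.

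Sirt6, the targeted gene, was counted 1755 to 1964 times per library in Sirt6-Ctrl and 695 to 753 times in Sirt6-KD. Its level in CPM (counts relative to the TMM-scaled library total) fell from 52.7 ± 3.78 to 20.6 ± 1.07 (mean ± SD of 4 libraries), with a log2 fold change of -1.35 and a standard error (SE) of 0.13 (edgeR quasi-likelihood test, adjusted p = 0.000713). Total counts were 31994838 to 40124813 per Sirt6-Ctrl library and 32382957 to 36600792 per Sirt6-KD library, and 3 counts corresponded to 0.0727 to 0.0928 CPM. ERCC spike-ins, synthetic RNAs added before library preparation, took 6.27% of the counts in S1 and 9.80% in S2, against 2.97% and 3.08% in S4 and S3 and 2.15% to 2.47% in Sirt6-KD, so S1 and S2 stood apart. Of 15 NP marker names, 9 had a value and 8 of these exceeded 1 CPM in every library, with sums of 263 to 335 CPM in control and 291 to 326 CPM in knockdown libraries. These sums pool markers that moved in opposite directions, so like sums do not show that each marker kept its level. Mean levels in Sirt6-Ctrl and Sirt6-KD were 56.6 and 81.7 CPM for Cdh2, 37.9 and 19.3 CPM for Cd24, and 71.8 and 53.4 CPM for Pax1. The NP markers Krt8 (6.56 to 2.63 CPM, adjusted p = 0.0441) and Car3 (16.03 to 2.47 CPM, adjusted p = 0.0127) fell, whereas the other 7 were not called. Of those 7, Pax1 was past the adjusted p but less than 1.5-fold lower (log2 fold change -0.43, adjusted p = 0.0459). Cd24 had a log2 fold change of -0.98 (adjusted p = 0.0537). In 3 of the 9 markers every Sirt6-KD library lay below every Sirt6-Ctrl library, against 15.6% of all genes tested. In 0 of them did every Sirt6-KD library lie above, against 14.8% of all genes tested. Of the 9, 3 had a positive log2 fold change (Car12, Sox9 and Cdh2) and 6 a negative, and Car12 measured 28.4 and 82.1 CPM (log2 fold change 1.53, adjusted p = 0.0776). Other names that define NP cells, such as Krt18, Krt19, Tbxt, Col2a1 and Shh, were not analysed here. Of 11 macrophage and leukocyte markers, 3 (Cd68, Csf1r and Cd14) had a value and summed to 11.9 to 29.7 CPM in S1 to S4 and 14.96 to 23.8 CPM in S5 to S8, and none of the 3 passed the test. Annulus fibrosus and tendon fibroblast markers, 5 of 6 with a value, summed to 13362 to 25369 CPM against 7998 to 17520 CPM, with Scx lower (adjusted p = 0.0490). Nearly all of that sum was Col1a1, at 13286 to 25213 CPM against 7961 to 17465 CPM. Col1a1 was not called (log2 fold change -0.63, adjusted p = 0.150). Pericyte and smooth muscle markers, 4 of 5 with a value, summed to 245 to 1366 CPM against 355 to 899 CPM. The high ends came from S4 and S8, where Acta2 was 1048 and 583 CPM. Acta2 was 19.8, 33.8 and 76.2 CPM in S1 to S3 and 128, 113 and 83.8 CPM in S5 to S7. Myh11 was likewise highest in S4 (43.5 CPM) and S8 (40.2 CPM). Tek, the endothelial marker with a value, was at most 0.592 CPM in any library. The part of other cell types in the values that follow was not tested.

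Promoters of 8 of the 10 genes were found by symbol in the RefSeq promoter table of assembly GRCr8, which covers 250 bases before to 50 after each gene's start; the counts themselves were made on assembly Rnor_6.0. These windows were searched on both strands for 4 motifs, AP-1 (TGANTCA), the cAMP response element or CRE (TGACGTCA), the degenerate NF-kB consensus and a STAT site (TTCNNNGAA), which occurred in 7.33%, 1.83%, 7.51% and 8.87% of the 33469 promoters in the table. The promoters of Il6, Il11 and Osmr are shown, with the matched letters in capitals, so that Il6, which was not called, can be read beside a cytokine and a receptor that rose. Il6 lies at chr4:5894526-5894825 on the minus strand, Il11 at chr1:78098372-78098671 on the plus strand and Osmr at chr2:57688512-57688811 on the minus strand.
Il6: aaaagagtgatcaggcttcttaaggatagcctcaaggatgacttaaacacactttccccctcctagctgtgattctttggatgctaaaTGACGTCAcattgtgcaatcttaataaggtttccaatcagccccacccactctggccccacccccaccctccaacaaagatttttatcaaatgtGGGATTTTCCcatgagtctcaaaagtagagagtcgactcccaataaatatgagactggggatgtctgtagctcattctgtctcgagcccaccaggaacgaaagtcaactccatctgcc
Il11: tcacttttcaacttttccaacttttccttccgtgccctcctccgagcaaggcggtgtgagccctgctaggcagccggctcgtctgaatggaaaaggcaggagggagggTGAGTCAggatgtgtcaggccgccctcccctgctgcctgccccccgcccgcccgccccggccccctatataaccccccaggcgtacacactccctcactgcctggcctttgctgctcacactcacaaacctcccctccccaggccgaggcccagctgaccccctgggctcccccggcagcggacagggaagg
Osmr: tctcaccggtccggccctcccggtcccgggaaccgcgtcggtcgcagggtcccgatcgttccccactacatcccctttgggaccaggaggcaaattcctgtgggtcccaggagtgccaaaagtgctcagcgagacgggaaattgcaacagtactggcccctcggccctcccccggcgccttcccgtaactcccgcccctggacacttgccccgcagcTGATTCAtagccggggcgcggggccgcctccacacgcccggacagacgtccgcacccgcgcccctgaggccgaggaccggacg
In Il6 the CRE began 162 bases and the NF-kB match, GGGATTTTCC, 68 bases before the start. The AP-1 match of Il11, TGAGTCA, began 142 bases before the start, and that of Osmr, TGATTCA, 33 bases before it. An NF-kB match also began 161 bases before the start of Socs3 and, on the other strand, 1 base before that of Il6st. The windows of Il6r, Lifr and Stat3 held none of the 4 motifs as written. These matches describe the letters of the reference and were not tested for binding.

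Of the 10 genes, Lif, Il11, Il6st, Osmr and Socs3 were called higher in Sirt6-KD, and 0 lower, where a call needed both an adjusted p under 0.05 and more than 1.5-fold. Among all genes tested, 8.02% were called higher and 10.7% lower. The 10 genes and the lists below were chosen with earlier results of these data known, so such shares are descriptive. By the adjusted p alone, 6 of the 10 were higher and 0 lower, against 9.11% and 12.8% of all genes tested. At an unadjusted p below 0.05, 6 of the 10 were higher and 0 lower by edgeR, against 16.1% and 20.4% of all genes tested. DESeq2 called 5 higher and 0 lower, against 11.2% and 12.6% of all genes, and limma-voom also called 5 and 0, against 12% and 9.88%. All 10 had a positive log2 fold change, with a median of 1.12 against -0.016 over all genes tested, of which 49.1% were positive. In 6 of them (the called 5 and Stat3) every Sirt6-KD library lay above every Sirt6-Ctrl library, as was so for 14.8% of all genes tested. In these bulk libraries, more RNA per cell and more cells of a kind that makes it cannot be told apart.

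**Figure D1:**
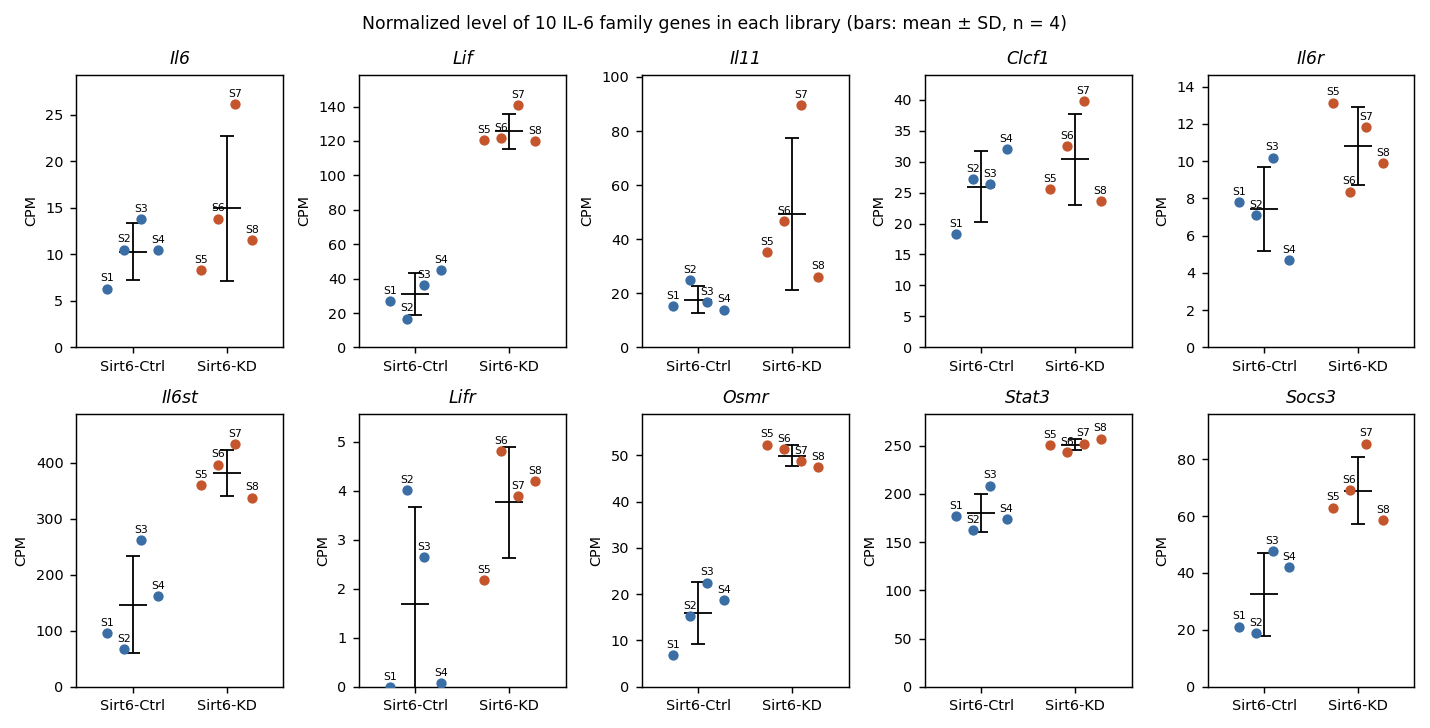
Level of each of the 10 genes in TMM-normalized CPM, by group, with a point for each library and the mean with its SD (n = 4). The Sirt6-KD points of Lif, Il11, Il6st, Osmr, Stat3 and Socs3 lie above all Sirt6-Ctrl points, whereas those of Il6, Clcf1, Il6r and Lifr overlap with them.

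Among the cytokines, Lif (ENSRNOG00000007002) showed the clearest separation. It measured 27.1, 16.8, 36.2 and 44.9 CPM in S1 to S4 and 120, 122, 141 and 120 CPM in S5 to S8. The groups did not overlap, and even S4, the highest Sirt6-Ctrl library, lay far below every Sirt6-KD library. The mean rose from 31.3 ± 12.1 to 126 ± 10.1 CPM, a log2 fold change of 2.01 (SE 0.26, 95% interval 1.43 to 2.58, 4.02-fold, adjusted p = 0.00217). Without S1 and S2, which had the highest spike-in shares and the lowest Lif levels of Sirt6-Ctrl, the log2 fold change was 1.64 (adjusted p = 0.000935).

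Il11 (ENSRNOG00000017386) encodes interleukin-11, which signals through gp130 and is known in bone remodelling and fibrosis. Its levels were 15.4, 24.9, 16.6 and 13.96 CPM in S1 to S4 and 35.1, 46.8, 89.6 and 26.2 CPM in S5 to S8. The groups did not overlap, but S8 at 26.2 CPM lay close to S2 at 24.9 CPM, and S7 was well above the other Sirt6-KD libraries. The mean rose from 17.7 ± 4.89 to 49.4 ± 28.1 CPM, a log2 fold change of 1.48 (SE 0.36, 95% interval 0.69 to 2.27, 2.79-fold, adjusted p = 0.0176). The call was lost without S1 (adjusted p = 0.0545), and the log2 fold change was 1.02 at its lowest among the fits that left out a library.

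Il6 (ENSRNOG00000010278), the cytokine that gives the family its name, was not called. It measured 6.32, 10.5, 13.8 and 10.5 CPM in S1 to S4 and 8.34, 13.9, 26.2 and 11.5 CPM in S5 to S8. Of the Sirt6-KD libraries, S5 and S8 lay within the Sirt6-Ctrl range, S6 at its upper end and S7 well above it. The mean was 10.3 ± 3.07 CPM against 14.97 ± 7.80 CPM in Sirt6-KD, with a log2 fold change of 0.54 (SE 0.37, 95% interval -0.28 to 1.36, adjusted p = 0.320). The value rested largely on S7, without which it was 0.13 (adjusted p = 0.843), and it was 0.31 without S1 and S2. Counts were 220 to 469 per Sirt6-Ctrl library and 288 to 1004 per Sirt6-KD library.

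Clcf1 (ENSRNOG00000018752) encodes cardiotrophin-like cytokine factor 1, which signals through gp130 and Lifr. It measured 18.3, 27.2, 26.3 and 32.0 CPM in S1 to S4 and 25.6, 32.5, 39.7 and 23.6 CPM in S5 to S8. The groups overlapped, and 2 Sirt6-KD libraries (S5 and S8) lay inside the Sirt6-Ctrl range. The means were 25.96 ± 5.71 and 30.3 ± 7.32 CPM, with a log2 fold change of 0.22 (SE 0.22, 95% interval -0.27 to 0.72, adjusted p = 0.510). It was 0.067 without S7, 0.12 without S1, 0.34 without S4, 0.36 without S8 and 0.066 without S1 and S2.

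Lif and Il6 were further compared within each library by the log2 ratio of their counts, in which library size cancels. A ratio of 2 genes depends on their lengths, so only its difference between the groups is read. The log2 ratio of Lif over Il6 was 2.10, 0.67, 1.39 and 2.10 in S1 to S4 and 3.85, 3.13, 2.43 and 3.38 in S5 to S8. The groups did not overlap and their means, 1.56 ± 0.68 and 3.196 ± 0.59, differed by 1.63 (p = 0.0286 by an exact two-sided permutation test, which cannot go lower with 4 libraries against 4). In all, 4 such ratios were tested, and the p adjusted over them was 0.114.

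Among the receptor chains, Il6st (ENSRNOG00000013963), which encodes gp130, measured 95.4, 67.5, 262 and 163 CPM in S1 to S4 and 361, 397, 433 and 338 CPM in S5 to S8. The Sirt6-Ctrl libraries were spread widely, with S1 and S2 lowest, and all lay below the Sirt6-KD libraries. The mean rose from 147 ± 86.6 to 382 ± 41.6 CPM, a log2 fold change of 1.38 (SE 0.35, 95% interval 0.60 to 2.15, 2.60-fold, adjusted p = 0.0209). Without S1 and S2 the log2 fold change was 0.86 (adjusted p = 0.0274). The call was lost without S1 (adjusted p = 0.0684), S5 (0.0520), S6 (0.0589) or S7 (0.0606).

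Osmr (ENSRNOG00000033192) encodes the receptor chain that joins gp130 to bind oncostatin M. Its levels were 6.87, 15.3, 22.5 and 18.7 CPM in S1 to S4 and 52.3, 51.3, 48.7 and 47.4 CPM in S5 to S8. The Sirt6-KD libraries lay close together and far above all Sirt6-Ctrl libraries. The mean rose from 15.9 ± 6.67 to 49.95 ± 2.27 CPM, a log2 fold change of 1.66 (SE 0.30, 95% interval 0.99 to 2.32, 3.15-fold, adjusted p = 0.00645). Without S1 and S2 the log2 fold change was 1.29 (adjusted p = 0.00267).

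Il6r (ENSRNOG00000020811), the binding chain for IL-6, measured 7.82, 7.11, 10.2 and 4.70 CPM in S1 to S4 and 13.1, 8.36, 11.8 and 9.88 CPM in S5 to S8. The ranges overlapped at S3, which lay above S6 and S8. The means were 7.45 ± 2.26 and 10.8 ± 2.11 CPM, with a log2 fold change of 0.54 (SE 0.29, 95% interval -0.12 to 1.19, adjusted p = 0.216). The log2 ratio of Il6r over Il6st averaged -4.16 ± 0.88 in Sirt6-Ctrl and -5.16 ± 0.32 in Sirt6-KD, a difference of -0.996 (exact two-sided permutation test, p = 0.0857, adjusted over 4 ratios 0.114). The difference was -0.26 without S1 and S2.

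Lifr (ENSRNOG00000011696), the receptor chain for LIF, was counted 0, 130, 90 and 3 times in S1 to S4 and 75, 161, 149 and 142 times in S5 to S8. In CPM these were 0, 4.02, 2.65 and 0.07 against 2.17, 4.81, 3.88 and 4.20. S1 and S4 held almost no Lifr reads, whereas S2 and S3 were within the Sirt6-KD range. S1 and S4 did not share a high spike-in share, which was 6.27% and 2.97%. The means were 1.69 ± 1.99 and 3.77 ± 1.13 CPM, and the log2 fold change of 1.16 had an SE of 1.19 and a 95% interval of -1.46 to 3.78 (adjusted p = 0.519), so a difference in Lifr could not be resolved. Its log2 fold change was 2.07 without S2 and 0.76 without S4. The log2 ratio of Osmr over Lifr averaged 5.42 ± 3.44 in Sirt6-Ctrl and 3.78 ± 0.54 in Sirt6-KD (difference -1.64, exact two-sided permutation test, p = 0.429). This difference moved with the Lifr counts of 0 and 3, and was -0.48 without S1, -0.85 without S4, -2.81 without S2 and -1.02 with 2 added to each count.

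**Figure D2:**
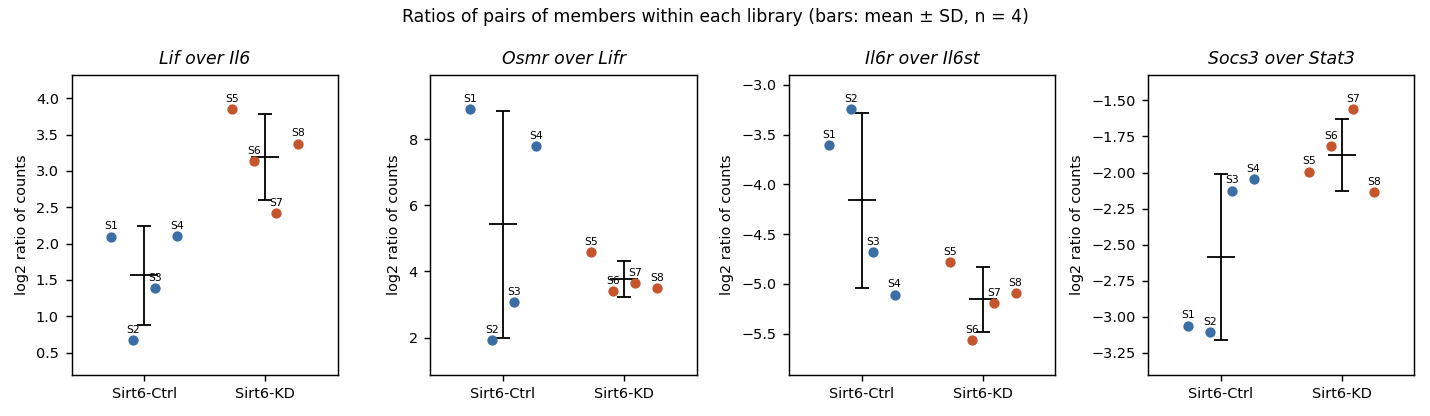
Log2 ratio of the counts of 4 gene pairs within each library, by group, with a point for each library and the mean with its SD (n = 4). The groups are apart for Lif over Il6, whose difference is 1.63, and overlap for the other 3 pairs.

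Stat3 (ENSRNOG00000019742), which carries the signal to the nucleus, measured 177, 163, 208 and 173 CPM in S1 to S4 and 251, 243, 252 and 257 CPM in S5 to S8. The groups did not overlap. The log2 fold change was 0.48 (SE 0.12, 95% interval 0.21 to 0.74, adjusted p = 0.0195), from 180 ± 19.7 to 251 ± 5.63 CPM. At 1.39-fold the difference was past the adjusted p but below the 1.5-fold limit, so Stat3 was not counted among the calls. The adjusted p was above 0.05 without S1 (0.0513), S5 (0.0601), S6 (0.0599) or S7 (0.0612), and without S1 and S2 together (0.0551). RNA levels do not report the phosphorylation of STAT3.

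Socs3 (ENSRNOG00000002946), the feedback inhibitor, measured 21.2, 18.9, 47.7 and 41.9 CPM in S1 to S4 and 62.9, 69.1, 85.4 and 58.4 CPM in S5 to S8. S1 and S2 were again the lowest Sirt6-Ctrl libraries, and S3 and S4 lay below but nearer to the Sirt6-KD range. The mean rose from 32.4 ± 14.6 to 69.0 ± 11.8 CPM, a log2 fold change of 1.09 (SE 0.29, 95% interval 0.44 to 1.74, 2.13-fold, adjusted p = 0.0261). Without S1 and S2 the log2 fold change was 0.63 (adjusted p = 0.0447). The call was lost without S1 (adjusted p = 0.0766), S5 (0.0588), S6 (0.0682) or S7 (0.0802). The log2 ratio of Socs3 over Stat3 averaged -2.59 ± 0.58 and -1.88 ± 0.25, a difference of 0.71 (exact two-sided permutation test, p = 0.0857, adjusted over 4 ratios 0.114), which was 0.21 without S1 and S2.

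Across the 10 genes, the Sirt6-Ctrl libraries were not alike. S1 and S2 were the lowest pair of Sirt6-Ctrl for 4 of the 10 (Lif, Il6st, Osmr and Socs3), and S7 was the highest Sirt6-KD library for 6 of the 10 (Il6, Lif, Il11, Clcf1, Il6st and Socs3). Without S1 and S2, all 5 called genes kept their call, with Il6st and Socs3 moving by more than 1.5 times on the log2 scale. With each library scaled to its spike-ins, the log2 fold change had a median of 0.94 over all genes, and Lif, Il11, Il6st, Osmr and Socs3 lay 1.81, 1.64, 1.10, 1.498 and 0.86 above that median. Under that scaling 0 of the 10 were called by edgeR, and 9 were higher at an unadjusted p below 0.05, as were 31.8% of all genes tested (0.332% were lower), and the adjusted p of the 5 ranged from 0.0711 to 0.0924. Whether the spike-ins were added per cell or per amount of RNA is not given in the sources used here, so the scale of these values is not known. The part that the spike-in share has in these differences was not tested.

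**Figure D3:**
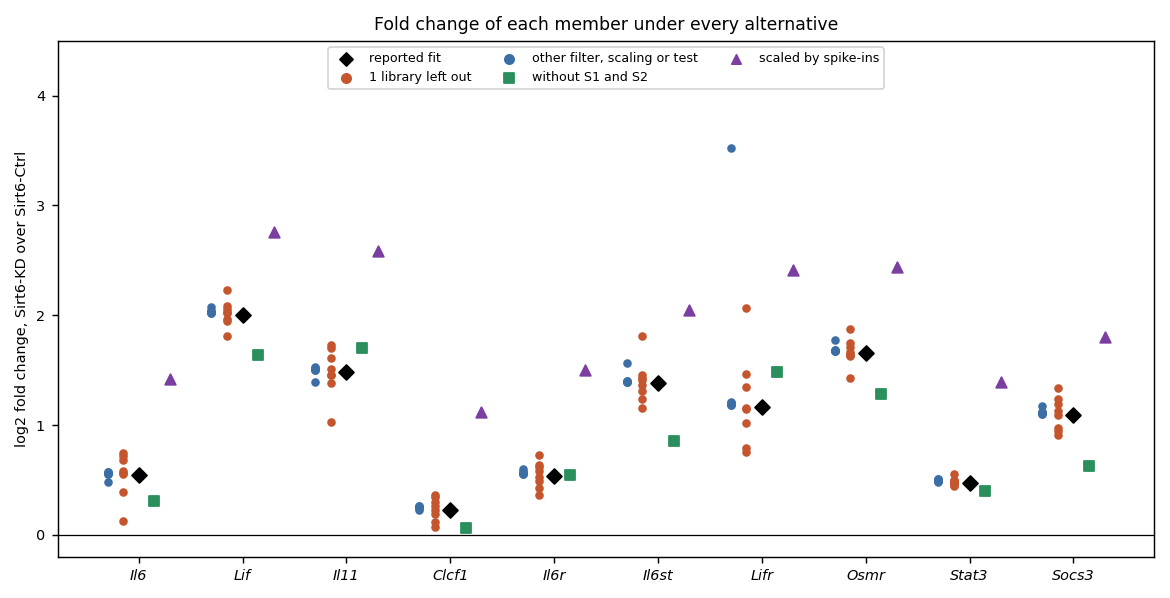
Log2 fold change of each of the 10 genes under the reported fit and under the alternatives, with a point for each setting. The spike-in scaling gives higher values for Lif (2.76), Il11 (2.58), Il6st (2.05), Osmr (2.44) and Socs3 (1.80) than the reported fit, and no value of the 10 genes falls below 0.

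The other ligands and receptors of the family gave 4 tested genes of 8 listed, with 0 called higher and 1 lower by edgeR, DESeq2 and limma-voom alike. Of all genes tested, 10.7% were called lower by edgeR, 12.6% by DESeq2 and 9.88% by limma-voom. At an unadjusted p below 0.05, 0 were higher and 2 lower by edgeR, against 16.1% and 20.4% of all genes tested. A list of 4 tested genes is too short to read these counts as a result about the list. Il11ra1, the binding chain for IL-11, fell from 49.4 ± 10.4 to 29.0 ± 1.63 CPM (log2 fold change -0.77, SE 0.17, adjusted p = 0.0139), although it was 0.31 under the spike-in scaling, which is -0.64 relative to the median of all genes. Its level was 52.2, 61.2, 36.1 and 48.1 CPM in S1 to S4, all above the Sirt6-KD libraries, whose highest was S6 at 31.0 CPM. The call was lost without S5 (adjusted p = 0.0508) and without S1 and S2 together (log2 fold change -0.52, adjusted p = 0.0523). Il11 and Il11ra1, the ligand and its binding chain, thus had opposite signs in the reported fit.

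The other 3 tested genes of that list were not called. Cntf, which encodes ciliary neurotrophic factor, had 3.36 ± 2.69 CPM in S1 to S4 and 1.23 ± 0.36 CPM in S5 to S8 (log2 fold change -1.45, adjusted p = 0.121), and was -0.71 without S1 (adjusted p = 0.453), the library with 7.30 CPM, and -1.71 without S2, the fit in which it was called (adjusted p = 0.0431). Ebi3, a subunit of IL-27, had a log2 fold change of -1.71 (adjusted p = 0.224), which was -1.12 without S2 and -0.53 without S1 and S2. Ctf1, which encodes cardiotrophin-1, had 0.055 (adjusted p = 0.954). Osm, Il27, Cntfr and Il27ra were not analysed here.

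Of 14 genes for Janus kinases, other STATs, adaptors and receptor-cleaving proteases, 2 were called higher, Jak1 and Stat6, and 0 lower by edgeR, DESeq2 and limma-voom alike. That is 14.3% of the list, against 8.02% of all genes tested by edgeR, 11.2% by DESeq2 and 12% by limma-voom. By edgeR 2 were higher and 2 lower at an unadjusted p below 0.05, against 16.1% and 20.4% of all genes tested. Of the 14, 9 had a positive log2 fold change and 5 a negative. Jak1, a kinase bound to gp130, measured 219, 165, 270 and 200 CPM in S1 to S4 and rose from 213 ± 43.7 to 353 ± 15.4 CPM (log2 fold change 0.73, SE 0.15, adjusted p = 0.0113). Its groups did not overlap. Stat6, which is best known in signalling by interleukin-4, rose from 61.9 ± 22.04 to 125 ± 5.97 CPM (log2 fold change 1.02, SE 0.22, adjusted p = 0.0118), and its log2 fold change was 0.67 without S1 and S2 (adjusted p = 0.0194). The other Janus kinases were not called, with log2 fold changes of 0.18 for Jak2 (adjusted p = 0.458), 0.46 for Jak3 (adjusted p = 0.230) and -0.21 for Tyk2 (adjusted p = 0.401). Jak2 was 0.11 without S2, 0.30 without S4 and -0.036 without S1 and S2, and Jak3 was 0.26 without S6. Tyk2 was -0.093 without S1 and S2. Under the spike-in scaling Tyk2 was 0.81, which is -0.14 relative to the median of all genes. Grb2, an adaptor, was past the adjusted p but not the fold limit at -0.41 (adjusted p = 0.0254). Under the spike-in scaling Grb2 was 0.60, which is -0.35 relative to the median of all genes. The adjusted p of Grb2 was above 0.05 without S1, S5, S6, S7 or S8 (up to 0.0862), without S1 and S2 together (0.0802) and with no low-count filter (0.0562).

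Of 14 genes whose products restrain the pathway beside Socs3, Cish and Ptpn1 were called higher and 0 lower by edgeR. The 2 called higher are 14.3% of the list, against 8.02% of all genes tested. Of the 14, 11 had a positive log2 fold change and 3 a negative. At an unadjusted p below 0.05, 4 were higher and 1 lower (16.1% and 20.4% of all genes tested), and DESeq2 and limma-voom each called 3 higher and 0 lower (11.2% and 12% of all genes were called higher). Cish, a family member of Socs3 induced mainly by STAT5, measured 8.16, 7.58, 19.96 and 9.62 CPM in S1 to S4 and rose from 11.3 ± 5.82 to 30.2 ± 4.68 CPM (log2 fold change 1.41, SE 0.31, adjusted p = 0.0126). Ptpn1, a phosphatase that acts on Janus kinases, rose from 58.1 ± 16.2 to 105 ± 6.63 CPM (log2 fold change 0.85, SE 0.19, adjusted p = 0.0133). Neither gene's groups overlapped. Pias2, an inhibitor of STATs, was past the adjusted p but not the fold limit (log2 fold change 0.48, adjusted p = 0.0459). Its adjusted p was above 0.05 without S1, S4, S5, S6, S7 or S8 (up to 0.136), without S1 and S2 together (0.111) and with no low-count filter (0.0556).

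Of 17 tested textbook STAT3 targets, listed apart from Socs3, 4 were called higher, which is 23.5% against 8.02% of all genes tested, and 0 lower by edgeR. At an unadjusted p below 0.05, 6 were higher and 1 lower (16.1% and 20.4% of all genes), and DESeq2 and limma-voom each called 5 higher and 0 lower (11.2% and 12% of all genes were called higher). The median log2 fold change was 0.51, and 15 of the 17 were positive, against 49.1% of all genes tested. In 6 the groups did not overlap and were higher in Sirt6-KD (14.8% of all genes tested). Because the list was chosen with earlier results of these data known, its shares are descriptive. Icam1, which encodes an adhesion molecule that is also an NF-kB target, rose from 177 ± 19.5 to 305 ± 18.1 CPM (log2 fold change 0.78, adjusted p = 0.00421). Vegfa, the angiogenic factor that also responds to hypoxia, rose from 848 ± 350 to 1630 ± 245 CPM (log2 fold change 0.94, adjusted p = 0.0478). Bcl6, a transcriptional repressor, and Myc, which drives cell growth, had log2 fold changes of 0.75 (adjusted p = 0.0249) and 0.69 (adjusted p = 0.0324). Each of these last 3 calls was lost in several of the fits that left out a library. Vegfa lost its call without S1, S2, S5, S6, S7 or S8 (adjusted p up to 0.116), Myc without S1, S2, S4, S5, S6 or S7 (up to 0.0980) and Bcl6 without S1, S5, S6 or S7 (up to 0.0802). Vegfa and Myc also lost it without S1 and S2 together. Bcl2l1, which encodes an inhibitor of apoptosis, was past the adjusted p at a log2 fold change of 0.57 (adjusted p = 0.0157), just under the fold limit, and passed both limits in 11 of 16 alternatives, while its adjusted p was above 0.05 without S5 (0.0508), S6 (0.0505) or S7 (0.0551).

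The last list held 15 genes that set Il6 transcription or the decay of its mRNA, of which 6 were called higher, which is 40% of the list, and 1 lower, against 8.02% and 10.7% of all genes tested. By DESeq2 the counts were 6 and 1 (11.2% and 12.6% of all genes) and by limma-voom 7 and 1 (12% and 9.88%). This list too was chosen with earlier results of these data known, so its shares are descriptive. Among the factors that drive transcription, Nfkbiz, a nuclear co-activator of NF-kB at the Il6 gene, rose from 85.9 ± 22.96 to 217 ± 20.4 CPM (log2 fold change 1.34, SE 0.18, adjusted p = 0.00265). The AP-1 subunits moved in opposite directions. Fosl1 rose from 49.9 ± 15.8 to 116 ± 14.9 CPM (log2 fold change 1.21, adjusted p = 0.00604), whereas Jun fell from 251 ± 47.2 to 105 ± 5.01 CPM (log2 fold change -1.25, SE 0.14, adjusted p = 0.00143). Nfkb1, an NF-kB subunit, and Il1r1, the interleukin-1 receptor, had log2 fold changes of 0.75 (adjusted p = 0.0205) and 1.65 (adjusted p = 0.0277). Il1r1 lost its call without S2, S5, S6, S7 or S8 (adjusted p up to 0.0723) and had a log2 fold change of 1.06 without S1 and S2. Nfkb1 lost its own without S1, S5, S6 or S7 (up to 0.0696) and without S1 and S2 together.

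The called genes Zc3h12a and Zfp36l1 act on mRNA decay. Zc3h12a encodes Regnase-1, a ribonuclease that degrades Il6 mRNA, and measured 42.7, 61.5, 83.1 and 72.4 CPM in S1 to S4. It rose from 64.9 ± 17.2 to 155 ± 2.29 CPM (log2 fold change 1.25, SE 0.19, adjusted p = 0.00330), with every Sirt6-KD library above every Sirt6-Ctrl library. Zfp36l1, which binds AU-rich elements, rose from 107 ± 24.3 to 228 ± 42.5 CPM (log2 fold change 1.10, adjusted p = 0.00540). Genes that drive Il6 and genes that act on the decay of its mRNA were thus both among those called higher. Of the 15 genes of the list, however, 8 had a positive log2 fold change and 7 a negative, with a median of 0.41. Of all genes tested, 49.1% were positive. What the called genes mean for the level of Il6 was not tested.

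**Figure D4:**
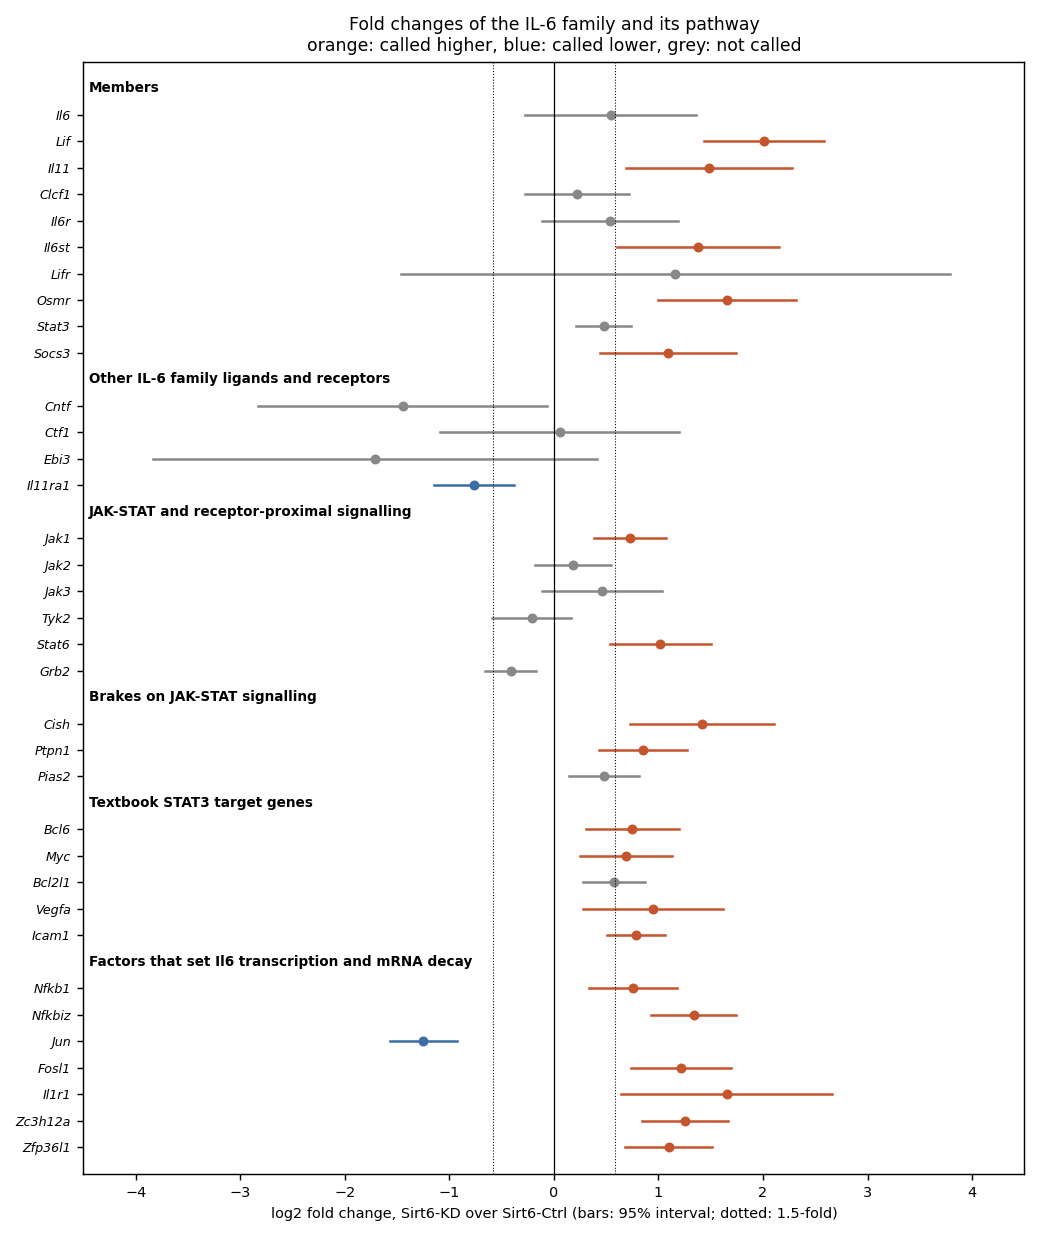
Log2 fold change, Sirt6-KD over Sirt6-Ctrl, of the 10 genes and of the pathway genes named in the text, by list, as points with 95% intervals from the edgeR fit, in orange where called higher, blue where called lower and grey where not called, with dotted lines at 1.5-fold. The intervals of Il6, Clcf1, Il6r and Lifr reach across 0, and the genes called lower are Jun (-1.25) and Il11ra1 (-0.77, but 0.31 under the spike-in scaling). Under that scaling Il11ra1 lay -0.64 relative to the median of all genes.

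The genes whose levels over the 8 libraries were most like those of Il6 and Lif were found by the root mean square difference of log2 CPM, each gene centred on its own mean. For Il6 they were Slfn5, Garnl3 and Zfp26, with differences of 0.21, 0.25 and 0.26, and none of the 3 passed the test. For Lif they were Zbtb38, Tns1 and AABR07039210.1, with differences of 0.24, 0.30 and 0.32. These values describe 8 libraries in 2 groups, so genes that separate the groups to a like degree come out as alike.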

How the data were processed

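RNA-seq of 8 libraries of primary rat NP cells was analysed, 4 of Sirt6-Ctrl and 4 of Sirt6-KD, grouped by the genotype in the labels. The submitters' processing notes name Trimmomatic 0.36, STAR 2.5.2b, featureCounts of Subread 1.5.2, DESeq2 and the genome build Rnor_6.0; the strand setting is not given in the sources used here. The deposited counts are the authors' reads per gene and per spike-in, not normalized, in 32975 rows. A second deposited table, of the 13612 rows whose counts sum to more than 80, holds a normalized signal per library, a log2 fold change and a p-value; gene names were taken from it (69 rows had none), and its signal and comparison values were not used.

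Counts were filtered with filterByExpr, normalized by TMM and tested with edgeR 4.0.16 in R 4.3.3 by the two-sided quasi-likelihood test (glmQLFit, glmQLFTest), adjusted by Benjamini-Hochberg over every row of the fit. Rows of 63 spike-ins stayed in the fit and were left out of gene counts. Calls needed an adjusted p under 0.05 and more than 1.5-fold, as in the study. The SE is the log2 fold change divided by the square root of the test's F. Ratios used counts with 0.5 added and exact permutation tests in SciPy 1.17.1. The spike-in share was tested by the same permutation test, without adjustment. The scripts were tested on simulated data. Replicates are separate samples in the labels, and p-values measure the spread between them. That spread was unequal, while the edgeR fit used the same dispersion of a gene for both groups. Spread beyond counting error was measured for each pair of libraries in a group as chi-square over its degrees of freedom. It was 96.4 to 348 in Sirt6-Ctrl and 19.4 to 85.8 in Sirt6-KD. Reads carry no molecular identifiers, so floors of 3 counts cover counting error only.

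The genes and lists were chosen with earlier results of these data known. Named were the 10 genes, Sirt6, the called genes of the pathway lists, the family ligands, receptors and Janus kinases whether called or not, and the 3 genes most like Il6 and Lif. List genes without a named row were not analysed here (Osm, Il27, Cntfr, Il27ra, Mcl1, A2m, Serpina3n and some cell type markers), and 1 other gene, left off the lists, is not reported here. Alternatives were other filters, DESeq2 size factors, removal of spike-ins, spike-in scaling, DESeq2 1.42.0, limma-voom 3.58.1, each library left out and S1 and S2 left out together.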

Additional observations from a re-analysis of the deposited data

Results flagged for a closer look

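In each group of 4 libraries, the gap between the highest or lowest library and its nearest neighbour was divided by the group's range and compared with Dixon's 95% critical value. Of 72 groups examined (36 genes in both groups), 8 exceeded it, and chance alone gives about 1 in 20, or about 4. Lif in Sirt6-KD was highest in S7 (0.908 of the range). Jak3 in Sirt6-Ctrl was lowest in S1 (0.956). Cish was highest in S3 among Sirt6-Ctrl (0.835) and in S6 among Sirt6-KD (0.960). Pias2 in Sirt6-KD was highest in S6 (0.854). Vegfa in Sirt6-KD was lowest in S8 (0.975). Jun was highest in S1 among Sirt6-Ctrl (0.865) and in S7 among Sirt6-KD (0.834).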

How the results depend on the processing

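Among the 10 genes, the same 5 were called with no low-count filter, with a total above 80, with DESeq2 size factors, without spike-in rows, by DESeq2, by limma-voom, without S2, S3, S4 or S8, and without S1 and S2 together. Without S1 only Lif and Osmr were called, and without S5, S6 or S7 only Lif, Il11 and Osmr, so the count ranged from 2 to 5 over the fits that left out a library. Over those fits the log2 fold change was 1.02 to 1.73 for Il11, 1.15 to 1.82 for Il6st and 0.91 to 1.33 for Socs3, the number of genes called higher 445 to 1699 (reported 1063) and lower 700 to 1913 (reported 1416), and that of pathway genes higher 9 to 18 (reported 14) and lower 1 to 4 (reported 2). With spike-in scaling, 20 genes were called higher and 4 lower, 0 of the 10 genes and 0 pathway genes were called by edgeR (at an unadjusted p below 0.05, 32 of 64 pathway genes were higher and 0 lower, as were 31.8% and 0.332% of all genes), and Lif (2.76), Il11 (2.58), Il6st (2.05), Osmr (2.44), Socs3 (1.80) and Sirt6 (-0.36, adjusted p = 0.567, or -1.31 relative to the median of all genes) lost their calls; the cause was not tested. Under it Il11ra1 (0.31), Tyk2 (0.81) and Grb2 (0.60) changed sign, though they lay -0.64, -0.14 and -0.35 relative to the median. Without S1 and S2, 709 genes and 1 pathway gene were called lower, and Ctf1 (-0.38) and Jak2 (-0.036) changed sign. Ctf1, at 0.055 in the reported fit, ranged from -0.23 to 0.46 over the fits that left out a library, and was below 0 without S1 (-0.089), S2 (-0.10), S7 or S8 (-0.056). Lifr, never called, reached 3.53 by limma-voom. No paired analysis was possible because the labels and count columns carry no number shared between the groups. The low counts of Lifr and the spread of the Sirt6-Ctrl libraries limited what could be resolved.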
